A study of Mus musculus with 4 samples.

Results

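The genes described here are 10 members of the bone morphogenetic protein (BMP) pathway, taken by name from the deposited gene table of 24441 genes. They are the ligands Bmp2, Bmp4, Bmp6 and Bmp7, the receptor Bmpr1a, the secreted antagonists Nog and Grem1, and the target genes Id1, Id2 and Id3. All 10 names were found in the table. Skin RNA came from female C57BL/6 mice at 8 weeks of age that had received subcutaneous bleomycin (BLM) every other day for 28 days, a treatment that makes skin fibrotic. The GSDMD KO group (GSDMD-/-, 2 libraries) lacked gasdermin D, the pore-forming executor of pyroptosis, and came from a line made by injecting Cas9 mRNA and guide RNA into fertilized eggs. The WT group (2 libraries) carried the normal gene and had the same treatment. Skin without BLM was not analysed here, so the comparison is between genotypes only.

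BMPs are secreted dimers of the TGF-beta superfamily. They join type I receptors such as BMPR1A to type II receptors, and the active complex phosphorylates Smad1 and Smad5, which enter the nucleus with Smad4. The Id genes are among the most direct targets and encode helix-loop-helix proteins that hold E proteins away from DNA. Noggin and gremlin bind the ligands outside the cell and keep them from their receptors. In skin, BMP signals hold hair follicle stem cells at rest and direct differentiation of the hair shaft, while noggin favours the onset of hair growth.

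Values are FPKM, in which counts of fragments are scaled by the authors to gene length and sequencing depth. They summed to between 448544 and 462251 FPKM per library. From the steps between low values, 1 fragment on a transcript of 1 kb was worth about 0.0570 to 0.0783 FPKM, an approximate figure from which no interval was derived. Fold changes come from limma on log2(FPKM + 1), a scale that understates the change of low genes, with Benjamini-Hochberg adjustment over the 13027 genes that reached 1 FPKM in 2 or more libraries. Paired values below are in the order replicate 1, replicate 2. Gsdmd, the targeted gene, had 14.0 and 18.2 FPKM for WT skin and 3.53 and 2.26 for KO skin. No source says whether the 2 libraries of a group came from separate mice, so p-values measure the spread between these libraries. The keratin Krt14, at 1215 to 2735 FPKM, and the skeletal muscle actin Acta1, at 3728 to 7681 FPKM, were abundant in all 4 libraries of this labelled skin.

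The 250 bases before the start of transcription are shown for a target, an antagonist and a ligand. RefSeq promoter windows were given for 6 of the 10 members, namely Bmp4, Bmp6, Bmpr1a, Grem1, Id2 and Id3. Windows of Bmp2, Bmp7, Nog and Id1 are named only. Each window shown matched the mm9 genome at 1 place and is written 5′ to 3′ on the strand of its gene. Capitals mark GGCGCC, a GC-rich element bound by BMP Smads that reads the same on both strands, and CAGAC or its complement GTCTG, the short Smad binding element.
Id2, chr12:25780958-25781207, minus strand: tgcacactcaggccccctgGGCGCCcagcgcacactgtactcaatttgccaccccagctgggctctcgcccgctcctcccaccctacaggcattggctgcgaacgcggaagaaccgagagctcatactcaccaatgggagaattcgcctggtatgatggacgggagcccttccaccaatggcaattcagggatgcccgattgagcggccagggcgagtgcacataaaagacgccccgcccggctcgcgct
Grem1, chr2:113598806-113599055, minus strand: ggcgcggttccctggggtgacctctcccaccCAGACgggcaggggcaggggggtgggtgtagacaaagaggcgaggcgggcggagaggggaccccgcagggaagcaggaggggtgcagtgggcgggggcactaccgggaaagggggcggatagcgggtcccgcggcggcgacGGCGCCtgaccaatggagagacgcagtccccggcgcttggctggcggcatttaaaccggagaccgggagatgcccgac
Bmp4, chr14:47010345-47010594, minus strand: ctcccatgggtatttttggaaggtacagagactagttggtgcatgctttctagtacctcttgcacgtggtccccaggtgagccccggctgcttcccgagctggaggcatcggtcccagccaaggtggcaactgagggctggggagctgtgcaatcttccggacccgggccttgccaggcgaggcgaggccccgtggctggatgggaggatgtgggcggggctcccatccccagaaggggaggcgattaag

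The Id2 window held 1 GGCGCC match, 231 bases before the start, and no CAGAC or GTCTG. In Grem1 the GGCGCC match began 78 bases and the CAGAC match 219 bases before the start. Bmp4 had neither motif in this window. The Id3 window, which is not printed, held 2 matches of CAGAC or GTCTG, at 167 and 68 bases before its start. Also not printed, the Bmpr1a window held GGCGCC at 198 bases and the Bmp6 window CAGAC at 119 bases before the start. Among 32851 RefSeq windows of the same length, 9.59% held GGCGCC and 42.2% held CAGAC or GTCTG, so many other promoters hold them too. The windows shown had 62.8% (Id2), 72% (Grem1) and 63.2% (Bmp4) G or C, beside a median of 52.4% over all windows. The capitals do not overlap each other, and a match is a string of letters and not a shown binding site.

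Of the 9 members that could be tested, Bmp2, Bmp4, Bmp7 and Id1 had both KO libraries above both WT libraries, and Nog had both below. Over all genes tested, 35.3% were non-overlapping with higher KO values and 20.5% with lower KO values, so the order alone was common in these libraries. After median-ratio scaling of the libraries these shares were 27.6% and 26.4%. Calling a gene took an adjusted p below 0.05 together with a log2 fold change beyond 1 in size, and limma called 0 of the 9 members and 0 of 13027 genes (0%). Gsdmd, the targeted gene, was not called either, at a log2 fold change of -2.14 (limma adjusted p = 0.248). A count of 0 calls thus does not show that a member was unchanged. At an unadjusted p under 0.05 with the same fold limit, 1 member was higher, Bmp7, and 0 were lower, against 6.16% of all genes higher and 4.14% lower. The median log2 fold change of the 9 members was 0.58, beside 0.11 for all genes tested. That median was 0.20 without WT replicate 2, 0.28 without KO replicate 2 and 0.38 without WT replicate 1. For 2 libraries against 2 the smallest p of an exact permutation test, two-sided, is 0.333, so none was run.

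**Figure D1:**
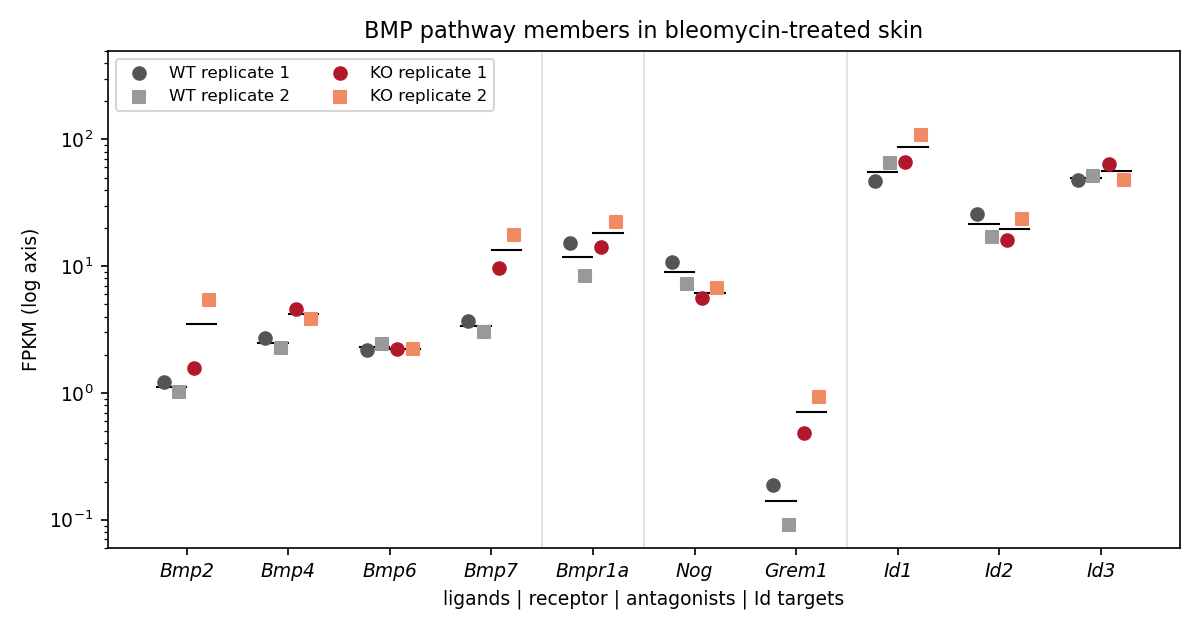
FPKM (log axis) of the 10 members in each library, WT in grey and KO in red and orange, with the group mean as a short line (n = 2 each). The KO points of Bmp7 (9.60 and 17.5) lie above its WT points (3.73 and 3.03), whereas those of Bmp6, Id2 and Id3 overlap.

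Bmp7 encodes a ligand that acts alone or as a dimer with other BMPs, and it had the largest fitted difference of the 9 tested members. The gene lies on chromosome 2 of mm9 from 172693513 to 172765822, on the minus strand, with 7 exons. It had 3.73 and 3.03 FPKM for WT skin and 9.60 and 17.5 for KO skin. Both KO values were thus above both WT values, and the lower KO library was 2.58 times the higher WT library. The group means were 3.38 ± 0.493 and 13.5 ± 5.55 FPKM (SD, n = 2 each), and the SD of the KO libraries was larger than the WT mean. Its log2 fold change was 1.68 (standard error 0.35, 95% interval 0.79 to 2.57, limma adjusted p = 0.248), which did not pass the threshold over all genes. The size of the difference depended on the KO library, since leaving out KO replicate 2 gave 1.28, and leaving out KO replicate 1 gave 2.08. Without KO replicate 1, Bmp7 was called (limma adjusted p = 0.00632), a fit that assumes the lone KO library varies like the WT pair and in which 2058 genes were called.

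Bmp4, the ligand of dermal cells and the hair bulb, lies on chromosome 14 from 47003200 to 47010344. It had 2.72 and 2.25 FPKM for WT skin and 4.60 and 3.84 for KO skin. The groups did not overlap, and the 2 libraries of each group lay within 1.21 times of each other. The log2 fold change was 0.58 (standard error 0.25, 95% interval -0.052 to 1.22, limma adjusted p = 0.311). An exon of Bmp4 overlaps the annotated gene Gm15217 on the opposite strand, and no source says whether the counting used strand.

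Bmp2, which is close to Bmp4 in sequence and acts through the same receptors, lies on chromosome 2 from 133377895 to 133388632. It had 1.22 and 1.02 FPKM for WT skin and 1.58 and 5.40 for KO skin. KO replicate 2 stood apart, at 3.41 times KO replicate 1, which was itself 1.29 times the higher WT library. The log2 fold change of 0.94 (with standard error 0.47 and limma adjusted p = 0.356) was 0.28 without KO replicate 2. Without KO replicate 1 it was 1.59 and called (limma adjusted p = 0.0159). Bmp6, a ligand of the differentiating epidermis that also acts in iron balance, was nearly level, with 2.16 and 2.42 FPKM for WT skin and 2.23 and 2.22 for KO skin. Its log2 fold change was -0.029, with a 95% interval from -0.63 to 0.57. Bmp6 lies on chromosome 13 from 38437585 to 38592183 and shares exonic sequence with Txndc5 on the opposite strand.

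**Figure D2:**
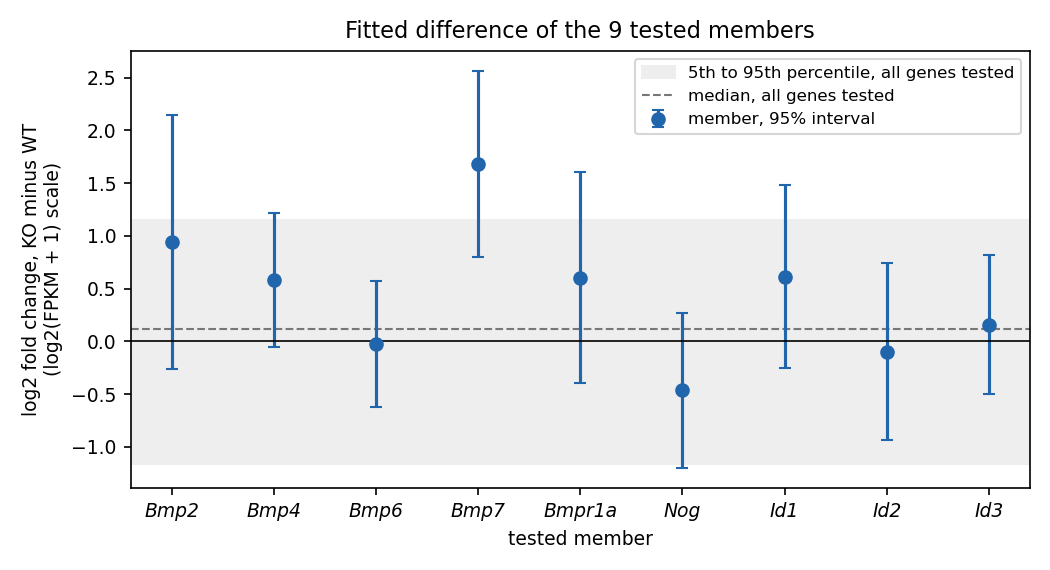
Fitted log2 fold change (KO minus WT, log2(FPKM + 1) scale) of the 9 tested members with 95% intervals. The band holds the 5th to 95th percentile of all 13027 genes tested and the dashed line is their median of 0.11. Only the interval of Bmp7 (0.79 to 2.57) leaves out 0.

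The receptor Bmpr1a, a type I receptor needed for hair shaft differentiation, lies on chromosome 14 from 35224254 to 35315732 and overlaps Gm17110 on the opposite strand. It had 15.3 and 8.34 FPKM for WT skin and 14.1 and 22.3 for KO skin. The groups overlapped, and the WT libraries differed 1.84-fold from each other. Its log2 fold change was 0.60 (standard error 0.39, 95% interval -0.39 to 1.60). Leaving out 1 library at a time gave 0.20 without WT replicate 2, 0.29 without KO replicate 2, 0.92 without KO replicate 1 and 1.01 without WT replicate 1.

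Nog, the gene of noggin, has a single exon on chromosome 11 from 89161952 to 89163873. It had 10.8 and 7.26 FPKM for WT skin and 5.65 and 6.70 for KO skin. The KO pair lay below the WT pair, but the lower WT value was only 1.08 times the higher KO value. The log2 fold change was -0.47 (standard error 0.29, 95% interval -1.20 to 0.27, limma adjusted p = 0.423). Its size rested on which WT library was kept, at -0.21 without WT replicate 1 and -0.73 without WT replicate 2. Grem1, the gene of gremlin, an antagonist made by fibroblasts, was too low to be tested. The span listed for it covers 1637 of its 4148 annotated exon bases. On chromosome 2, from 113588832 to 113598805, it had 0.189 and 0.0913 FPKM for WT skin and 0.480 and 0.931 for KO skin. About 5.43 and 2.14 fragments stood behind the WT values and 10.8 and 19.5 behind the KO values, so 1 WT library lay under a floor of 3 fragments and no fold is given. Both KO values lay above both WT values, and a fit without the filter on low values, over 19663 genes, did not call it (limma adjusted p = 0.375).

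The balance of ligands to noggin within a library does not depend on how libraries are scaled. The summed FPKM of Bmp2, Bmp4, Bmp6 and Bmp7 was 9.83 and 8.72 in WT and 18.0 and 28.9 in KO replicates 1 and 2. Relative to Nog this was 0.907 and 1.20 in WT and 3.18 and 4.32 in KO, so the ratio was higher in both KO libraries. Without Bmp7, the sum of the other ligands relative to Nog was 0.563 and 0.784 in WT and 1.49 and 1.71 in KO. Bmp7 made up 37.9% and 34.7% of the ligand sum in WT and 53.3% and 60.4% in KO. These ratios of mRNA levels join genes already described and were given no test. They hold for Nog and not for antagonists in general. Of 10 other extracellular antagonists and modulators tested, 7 had a log2 fold change above 0, beside 58.6% of all genes tested.

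**Figure D3:**
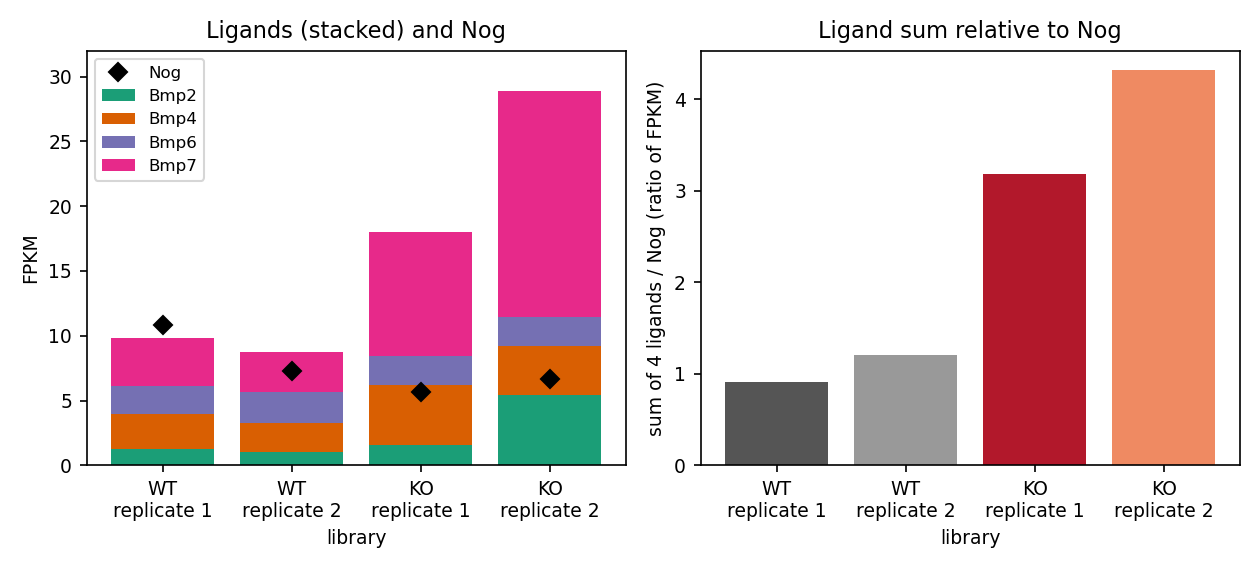
Left, FPKM of the 4 ligands stacked for each library, with Nog as a diamond. Right, the ligand sum divided by Nog, which was 0.907 and 1.20 in WT and 3.18 and 4.32 in KO libraries. Bmp7 takes the largest part of each bar.

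Among the target genes, Id1 was higher in the KO libraries as deposited, while Id2 and Id3 overlapped. Id1, on chromosome 2 from 152561987 to 152563146 with 2 exons, had 46.7 and 64.6 FPKM for WT skin and 66.3 and 107.6 for KO skin. KO replicate 1 was only 1.03 times WT replicate 2, and KO replicate 2 stood highest. The log2 fold change was 0.61 (standard error 0.34, 95% interval -0.26 to 1.48, limma adjusted p = 0.388). It was 0.27 when KO replicate 2 was left out, 0.38 when WT replicate 1 was, and 0.96 when KO replicate 1 was. After median-ratio scaling the Id1 groups overlapped, at 46.4 and 69.8 against 62.6 and 103.5 scaled FPKM. The same scaling put both KO libraries of Bmp6 below both WT libraries, and the order of Bmp2, Bmp4, Bmp7 and Nog stayed as described.

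Id3, on chromosome 4 from 135699737 to 135701307, had 48.1 and 51.1 FPKM for WT skin and 64.2 and 47.6 for KO skin. Its log2 fold change was 0.16, with a 95% interval from -0.50 to 0.81. Id2, on chromosome 12 from 25778664 to 25780957, had 25.8 and 17.0 FPKM for WT skin and 16.1 and 23.4 for KO skin. The spread within each group was 1.52-fold and 1.45-fold, more than the difference between the group means, and the log2 fold change was -0.10 (95% interval -0.94 to 0.74). The makeup of the Id pool differed most in KO replicate 2. There Id1 made up 60.2% of the summed FPKM of Id1, Id2 and Id3, against 38.8% and 48.7% in WT and 45.2% in KO replicate 1. The ratio of Id1 to Id3 was 2.26 in KO replicate 2 and between 0.971 and 1.26 in the other 3 libraries.

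In order of level, Id1 and Id3 led in both genotypes and Grem1 came last. In WT mice the means were 55.7 ± 12.6 FPKM for Id1 and 49.6 ± 2.11 FPKM for Id3, whose libraries overlapped. Id2 followed at 21.4 ± 6.22 FPKM, above Bmpr1a at 11.8 ± 4.95 FPKM and Nog at 9.04 ± 2.53 FPKM, and the last pair overlapped (SD, n = 2 for each mean). The WT ligands came next, Bmp7 above Bmp4 and Bmp6, which overlapped, and then Bmp2. In KO mice Bmp7 stood above Nog in both libraries, whereas in WT mice it stood below Nog in both. In KO mice the libraries of Id2 overlapped those of Bmpr1a, those of Bmpr1a overlapped those of Bmp7, and those of Bmp2 overlapped those of Bmp4 and of Bmp6.

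The other genes of the pathway came from lists of 66 genes by role, of which 44 could be tested. Of the 44, 0 were called over all genes, and at the unadjusted threshold with the fold limit 2 were higher, Sostdc1 and Dlx5, and 0 were lower. Their median log2 fold change was 0.15, and in 54.5% the groups did not overlap, 16 genes higher and 8 lower, beside 55.8% of all genes tested. These pooled values and counts include Msx2 and Dlx5, both higher in KO, which passed the filter on low values only with KO libraries. No direction is therefore read from them. The share of all genes past the unadjusted threshold was 6.16% higher and 4.14% lower, so these counts were near the background. The largest difference was in Sostdc1, a secreted antagonist of BMP and Wnt signals in the epidermis and hair follicle, with 3.74 and 4.61 FPKM for WT skin and 12.95 and 52.6 for KO skin. Its log2 fold change was 2.41 (with standard error 0.65 and limma adjusted p = 0.248). Of the 17 other extracellular antagonists and modulators 10 were tested, with a median of 0.36, and Chrd, the gene of chordin, had the lowest value at -0.95. Twsg1, a modulator that binds BMPs together with chordin, had an unadjusted p under 0.05 but a log2 fold change of 0.76, under the fold limit, and is named after its value was seen.

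Among the receptors, genes with higher and with lower KO values stood side by side, whereas the 3 tested Smads had log2 fold changes above 0, with overlapping groups for Smad4. Of 10 other receptors and co-receptors 9 were tested, with a median log2 fold change of -0.30. Values ran from -1.23 for Eng, a co-receptor of endothelial cells, to 1.02 for the type II receptor gene Acvr2a, at 3.61 and 1.69 FPKM for WT skin and 4.04 and 9.15 for KO skin. Eng was at 15.5 and 24.9 FPKM in WT, 19.8 FPKM in KO replicate 1 and 2.73 FPKM in KO replicate 2, so its low mean rested on 1 library. The signal-carrying Smads gave 0.72 for Smad1, at 9.89 and 7.63 against 12.4 and 17.9 FPKM, and 0.15 for Smad4. The 7 tested inhibitors inside the cell or at its membrane had a median of 0.059, from 0.0064 for Smurf1 to 0.47 for Smurf2, which both encode ubiquitin ligases. Of 11 other BMP and GDF ligands only 2 could be tested, and Bmp3 and Gdf10 had log2 fold changes of -0.062 and -0.083.

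Of the 7 other BMP target genes 6 were tested, and no median is read from them, since Msx2 passed the filter on low values only through the KO libraries (0.574 and 0.566 FPKM for WT skin, 4.63 and 1.28 for KO skin). Dlx3 overlapped, with its high KO value in replicate 1 alone. Both are named after their values were seen. Dlx5, a homeobox gene, had 1.56 and 0.490 FPKM for WT skin and 3.33 and 4.04 for KO skin, a log2 fold change of 1.26 (with standard error 0.34 and limma adjusted p = 0.248). Id4, the remaining Id gene, had the highest value of the list, 1.30, but its groups overlapped, with 6.996 and 2.02 FPKM for WT skin and 17.9 and 6.73 for KO skin. Atoh8, a target of endothelial and liver cells, was the lowest at -0.73, with 4.64 and 4.93 FPKM for WT skin and 3.38 and 1.77 for KO skin. Id4 was highest in KO replicate 1, the library in which hair follicle markers were also highest.

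**Figure D4:**
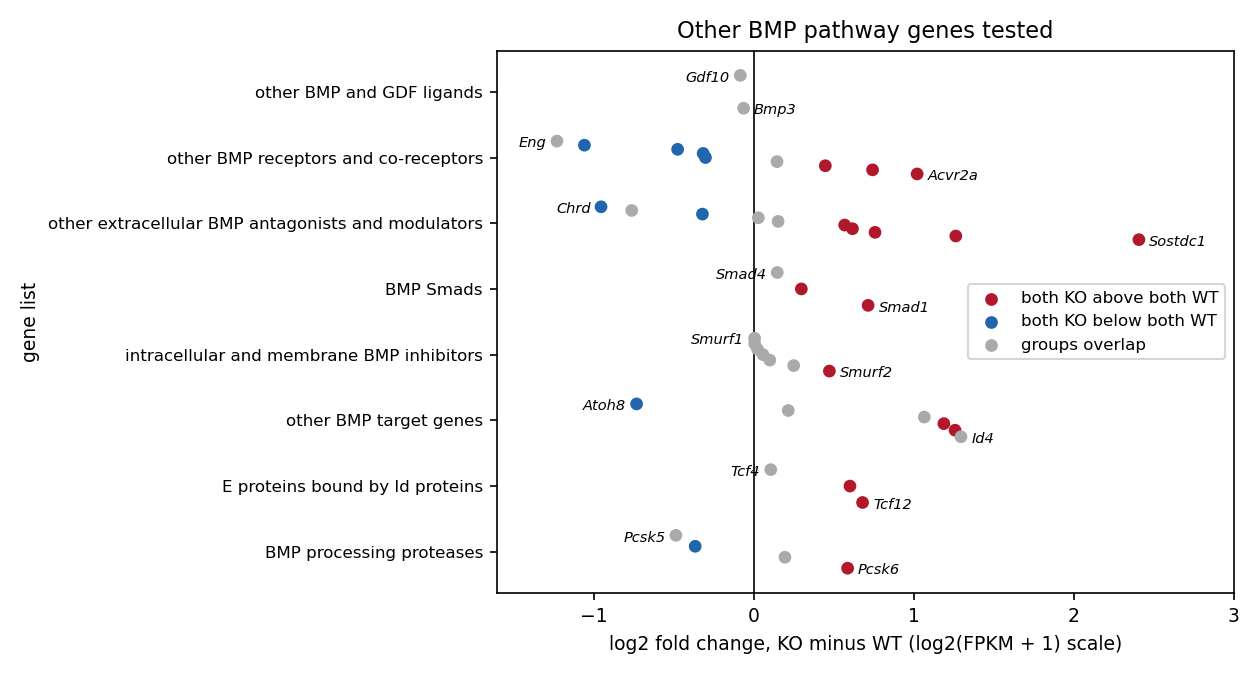
Log2 fold change (KO minus WT, log2(FPKM + 1) scale) of the 44 other pathway genes tested, by list, coloured by whether the groups overlap. The highest and lowest gene of each list are named, from Sostdc1 at 2.41 to Eng at -1.23.

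In bulk skin, fewer cells of a type and less RNA per cell cannot be told apart. Marker lists differed between the same libraries, and their part in the results was not tested. All 7 interfollicular keratinocyte markers were above 0 in every library, and they summed to 5716 and 3963 FPKM for WT skin and 12072 and 5836 for KO skin, although their median gene was lowest in KO replicate 2. Krt14, the keratin of basal keratinocytes, was at 1293 and 1215 FPKM for WT skin and 2689 and 2735 for KO skin. Per 1000 FPKM of Krt14, Bmp7 stood at 2.88 and 2.49 FPKM for WT skin and 3.57 and 6.38 for KO skin. That scale depends on the marker, since the differentiation markers Krt1, Krt10 and Lor, named after their values were seen, were lower in KO replicate 2 than in either WT library, as in Krt1 with 279.9 against 668.1 and 381.0 FPKM. Per 1000 FPKM of Krt14, Id1 was at 36.1 and 53.2 FPKM for WT skin and 24.7 and 39.4 for KO skin, so the groups overlapped, and Bmp4 was lower in KO, at 1.71 and 1.40 against 2.10 and 1.85 FPKM. The ratio of Bmp7 to Trp63, the master regulator of basal keratinocytes, was 0.219 and 0.269 in WT and 0.294 and 0.307 in KO. These ratios were chosen after the values were seen.

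The 5 sebaceous gland markers summed to 23.0 and 11.8 FPKM for WT skin and 112.8 and 654.0 for KO skin, and the KO pair lay above the WT pair in 4 of them, as in Elovl3 with 8.90 and 4.64 against 58.3 and 297.5 FPKM. KO replicate 2 was the highest library for these markers and also for Bmp7, Bmp2, Sostdc1 and Id1. Hair follicle shaft, sheath and matrix markers summed to 354.9 FPKM in KO replicate 1 and 14.2 FPKM in KO replicate 2, beside 10.3 and 1.23 FPKM for WT skin. Of these 12 markers, 5 were listed at 0 in WT replicate 2 and 1 in KO replicate 2. Melanocyte markers also summed highest in KO replicate 1, at 78.5 FPKM, and to 5.23 to 8.91 FPKM elsewhere. The 5 dermal papilla markers, the cells that supply noggin and BMPs to the follicle, summed to 6.64 and 7.89 FPKM for WT skin and 28.1 and 12.7 for KO skin, most of it Crabp1.

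Markers of several other cell types were lowest in KO replicate 2. Fibroblast markers summed to 328.8 and 234.0 FPKM in WT, 526.2 FPKM in KO replicate 1 and 36.7 FPKM in KO replicate 2. The blood endothelial sum was 74.2 and 111.1 FPKM in WT against 102.4 and 8.69 for KO skin, and that of the adipocyte list was 3764 and 10012 against 4405 and 325.4 FPKM. Smooth muscle and pericyte markers summed to 1300.4 and 1364 FPKM for WT skin and 1059 and 675.2 for KO skin, but most of each sum was Des, at 1157 and 1217 against 920.1 and 634.7 FPKM, a gene that skeletal muscle also expresses, and the median gene of KO replicate 1 lay above both WT libraries. Macrophage markers summed to 449.3 and 37.9 FPKM for KO skin against 798.8 and 1039, and 6 of the 7 genes were lower in both KO libraries, while Mrc1, named after its values were seen, overlapped. The sum of skeletal muscle markers was lower too, at 12457 and 12558 against 20171 and 19081 FPKM, although 2 of its 6 genes overlapped and the median gene of KO replicate 2 lay between the WT libraries. Id1 and Bmp2 were highest in the library with the lowest endothelial and fibroblast sums.

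**Figure D5:**
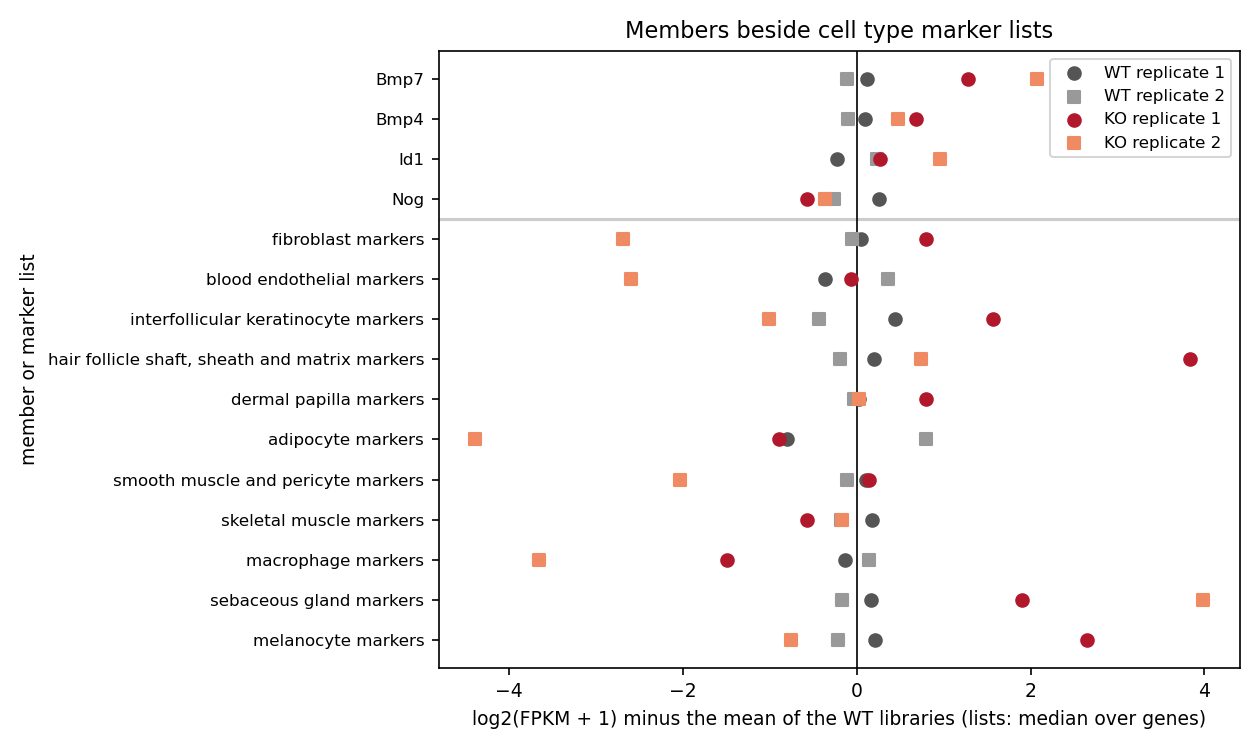
Log2(FPKM + 1) of 4 members, and the median over genes of each marker list, minus the mean of the WT libraries. Bmp7, Bmp4, Id1 and the sebaceous gland and hair follicle lists are higher in both KO libraries. The sebaceous gland list is higher by 1.91 and 3.99 log2 units and the hair follicle list by 3.84 and 0.74. The fibroblast and endothelial lists are below both WT libraries in KO replicate 2 alone. The adipocyte list is below them in both KO libraries, far more so in replicate 2.

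Genes with the profile closest to a member were ranked by the root mean square difference of log2(FPKM + 1), centred on each gene's mean, over the 4 libraries. For Id1 the closest of 13027 genes was Bcap31, at a difference of 0.022 log2 units, followed by Ppcdc and Gfra3. Bcap31 had 81.4 and 108.0 FPKM for WT skin and 111.6 and 180.0 for KO skin. For Bmp4 they were 2810029C07Rik, Rpl14 and Dnd1, of which Rpl14 had 189.7 and 157.7 FPKM for WT skin and 283.3 and 245.2 for KO skin. With 4 libraries and so many genes, close profiles are common.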

How the data were processed

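A total of 4 libraries of BLM-treated skin were grouped by their titles, 2 WT and 2 GSDMD KO. According to the methods, the authors mapped the reads on mm9 by HISAT2 version 2.0.1 and counted them per gene with featureCounts, and their processing notes also name StringTie version 2.0.6. The table deposited by the authors holds FPKM, not the counts its name gives: 99.993% of values above 0 are not whole, so no count model was used. The annotation behind it is not given in the sources used here. FPKM plus 1 was taken to log2 and fitted in limma (version 3.58.1, R version 4.3.3) with a mean-variance trend and genotype alone, on 13027 genes reaching 1 FPKM in 2 or more libraries. A call took an adjusted p below 0.05 and a log2 fold change beyond 1 in size. The code was tested on simulated data with the means and spread of these libraries. It called 0 of 200 genes changed by 2 log2 units. With 200 genes changed by 3 log2 units it called 131 genes, of which 129 were changed ones. Depth was estimated from 1966 single-transcript genes of at least 2 kb, and loci are those of GENCODE on mm9. Members and lists were chosen with earlier results of these data known. Genes named are the members, Gsdmd, the highest and lowest gene of each pathway list, those past the unadjusted threshold with the fold limit, up to 2 abundant genes per marker list, and the 3 closest profiles to Id1 and to Bmp4; Trp63 and others so marked were chosen after their values were seen. No source says that libraries with the same number shared more than that number, so they were not treated as pairs. Their deviations from the group means correlated at -0.20 over 13027 genes. With 2 libraries per group, that value cannot show whether they shared a batch. Other scalings, pseudocounts and filters, no trend, a replicate block and leaving out each library were tried. Tables were made with Python version 3.11.15.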

Additional observations from a re-analysis of the deposited data

How the results depend on the processing

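Without KO replicate 1 and without KO replicate 2, limma called 2058 and 43 genes over all genes tested, while leaving out either WT library gave 0, so the count ran from 0 to 2058. The number of members called ran from 0 to 2 and the number past the unadjusted threshold from 1 to 2, and the higher value in each, with Bmp2 joining Bmp7, came without KO replicate 1; the cause was not tested. A fit without a library has 1 residual degree of freedom and assumes that the lone library varies like the other group. Leaving out 1 library at a time, the log2 fold change of Id2 ran from -0.39 to 0.19, that of Bmp6 from -0.085 to 0.027 and that of Id3 from -0.057 to 0.37, so these 3 changed sign: Id2 without replicate 1 of either group, Bmp6 without WT replicate 2 and Id3 without KO replicate 1. Under the other alternatives 0 genes were called and no member changed direction. Over the alternatives the log2 fold change of Bmp7 ran from 1.28 to 2.08, and the adjusted p of Bmp7 from 0.00632 to 0.941. With the replicate number as a replicate block, 0 genes and 0 members were called and 1 member passed the unadjusted threshold, and no other call changed; with crossed numbers, an alternative chosen after seeing the data, the counts were also 0, 0 and 1. With median-ratio factors the all-gene median went from 0.11 to 0.0068 log2 units, and the genes past the unadjusted threshold from 802 higher and 539 lower to 630 higher and 707 lower. Without WT replicate 2 the count past that threshold was 508, and without KO replicate 1 it was 3017, against 1341. The depth behind Grem1 limits any statement on it.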

Other observations

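Genes whose proteins meet the Id proteins or prepare the ligands were also in the table. For the E proteins, which Id proteins bind, 3 of 3 genes were tested, with a median log2 fold change of 0.60. Tcf12 was at 10.2 and 7.62 FPKM for WT skin and 11.3 and 19.1 for KO skin, a log2 fold change of 0.68 (with standard error 0.34 and limma adjusted p = 0.352). Tcf4, at 0.11, had overlapping groups. Of 6 proteases that process BMPs, their antagonists or matrix, 4 were tested, with a median of -0.084. Pcsk6, a proprotein convertase, was the highest at 0.59, with 5.88 and 5.14 FPKM for WT skin and 10.9 and 7.03 for KO skin, and Pcsk5 was the lowest at -0.49, with overlapping groups. None of these 7 tested genes was called by limma over all genes, and 0 passed the unadjusted threshold with the fold limit.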
